A study of Mus musculus with 48 samples.

Results

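The Ly6 gene cluster of mouse chromosome 15 was examined through the open-chromatin peaks that 48 ATAC-seq libraries placed in a 230-kb window, from 74.77 to 75 Mb in mm9, which runs from Ly6e to the Ly6a and Ly6c genes. Peaks of all 48 deposited lists that overlapped by at least 1 bp were merged, which gave 52 regions in the window among 258607 in the genome and 10971 on chromosome 15. They are numbered 1 to 52 from low to high coordinates. ATAC-seq maps open DNA by the places where a transposase inserts sequencing adapters. The libraries come from 24 clones of mouse bone marrow ER-Hoxb8 cells, numbered 1 to 13 and 15 to 25. Each clone was measured 1 time as progenitors, labelled GMP (the Plus samples), and 1 time as monocytic cells (the Minus samples). ER-Hoxb8 cells are myeloid progenitors that a conditional Hoxb8 protein, fused to an oestrogen receptor domain, holds in an immature state, and every sample of both stages carries it. They were grown with stem cell factor, per the labels. The labels give no strain, sex, age or time of differentiation. Each library is 1 clone at 1 stage, so spread between libraries of a stage joins clonal and technical differences. Peaks were not assigned to genes and the labelled cell types were not checked against marker genes, because no mm9 annotation was used here.

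Ly6 genes encode small surface proteins, most of them tethered to the membrane by a glycosylphosphatidylinositol anchor. Ly6C, the product of Ly6c1 and Ly6c2, is the surface marker that separates classical inflammatory monocytes from patrolling monocytes in mice, and Ly6c2 is the copy that monocytes mainly use. Ly6a encodes Sca-1, a marker of haematopoietic stem cells that is low on committed myeloid progenitors and is induced by interferon. Ly6e is expressed broadly, is also induced by interferon and is known for its effect on virus entry. The RefSeq gene table (GRCm38.p6), used only for names and neighbours, lists 10 genes from Ly6e to Ly6c2, of which 5 are protein-coding, in the order Ly6e, Ly6i, Ly6a, Ly6c1 and Ly6c2.

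The RefSeq promoter table holds Ly6c1 and Ly6c2, 2 of the 4 named genes. Their promoters are shown because these are the genes of the Ly6C marker and lie in the window as similar copies. Each run starts 250 bases before the most upstream listed start and ends 30 bases after it, on the minus strand of chromosome 15 in GRCm38.p6, and capitals mark runs of at least 14 bases that the promoter of the other gene also holds.
Ly6c1: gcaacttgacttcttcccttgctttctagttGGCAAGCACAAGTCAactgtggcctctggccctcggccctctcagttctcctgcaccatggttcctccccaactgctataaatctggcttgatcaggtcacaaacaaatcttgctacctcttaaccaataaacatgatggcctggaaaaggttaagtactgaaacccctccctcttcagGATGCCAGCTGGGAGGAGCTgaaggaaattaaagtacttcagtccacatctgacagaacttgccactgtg
Ly6c2: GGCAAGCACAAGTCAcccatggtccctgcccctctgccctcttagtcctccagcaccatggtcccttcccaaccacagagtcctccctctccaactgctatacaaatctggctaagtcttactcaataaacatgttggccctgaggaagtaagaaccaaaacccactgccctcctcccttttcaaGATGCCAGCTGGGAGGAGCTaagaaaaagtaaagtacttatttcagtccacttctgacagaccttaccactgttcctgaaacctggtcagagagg
Aligned end to end over the 300 bases of each table entry, 214 of 260 paired bases (82.3%) were identical. None of the 265 words of 36 bases in the Ly6c1 entry occurred in the Ly6c2 entry. The Ly6c2 entry shared 133 such words with the promoter of Ly6a2, a neighbouring gene beyond Ly6c2, so part of it could not be told from that copy by reads of 36 bases. The word GAGGAAGT, read by the myeloid factor PU.1, was searched on both strands. It occurred 2 times in the Ly6c2 entry, 1 of them starting 108 bases before the start, and not in the Ly6c1 entry. It occurs in 3.20% of the 32851 promoters in the table. The C/EBP word TTNNGNAA occurred 2 times in the Ly6c2 entry and not in the Ly6c1 entry, and 40.7% of all promoters hold it. These matches are descriptions of letters and not binding sites, and no peak could be laid on these promoters because the builds differ.

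Progenitor lists placed 3, 26 and 34 peaks in the window (lowest, median, highest of 24) and monocyte lists 1, 4.5 and 16. The number was higher in the progenitor list in 23 of 24 clones. Lists differed in length, with a median of 82430 peaks in progenitors (11114 to 136322) and 21099 in monocytes (231 to 38786). Per 10000 peaks of the list, the window held a median of 2.98 peaks in progenitors (2.24 to 4.31) and 3.86 in monocytes (1.14 to 43.3), and the monocyte list was the higher of the pair in 15 of 24 clones. The top value is 1 peak in the list of 231 peaks from the monocytes of clone 22. Lists shortened to their 10000 peaks of highest score held 1.29 ± 0.690 peaks of the window in progenitors (SD, n = 24) and 2.06 ± 0.938 in monocytes (SD, n = 18). With lists of 20000 peaks the numbers were 2.87 ± 1.06 (SD, n = 23) and 8.50 ± 2.15 (SD, n = 12).

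Of the 52 regions, 28 were peaks in progenitor lists only, 21 in lists of both stages and 3 in monocyte lists only. The 3 monocyte-only regions were each held by 1 list. The progenitor-only share was 53.8%, against 61.8% of all regions in the genome, and the monocyte-only share was 5.77%, against 17.4%. In all, 27 regions were held by at least 12 progenitor lists and 3 by at least 12 monocyte lists, regions 15, 37 and 38, while 10 regions (19.2%, against 37.8% of all regions) were held by 1 list. A neighbouring window of equal length on the low-coordinate side held 51 regions, and that on the high-coordinate side held 8.

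**Figure D1:**
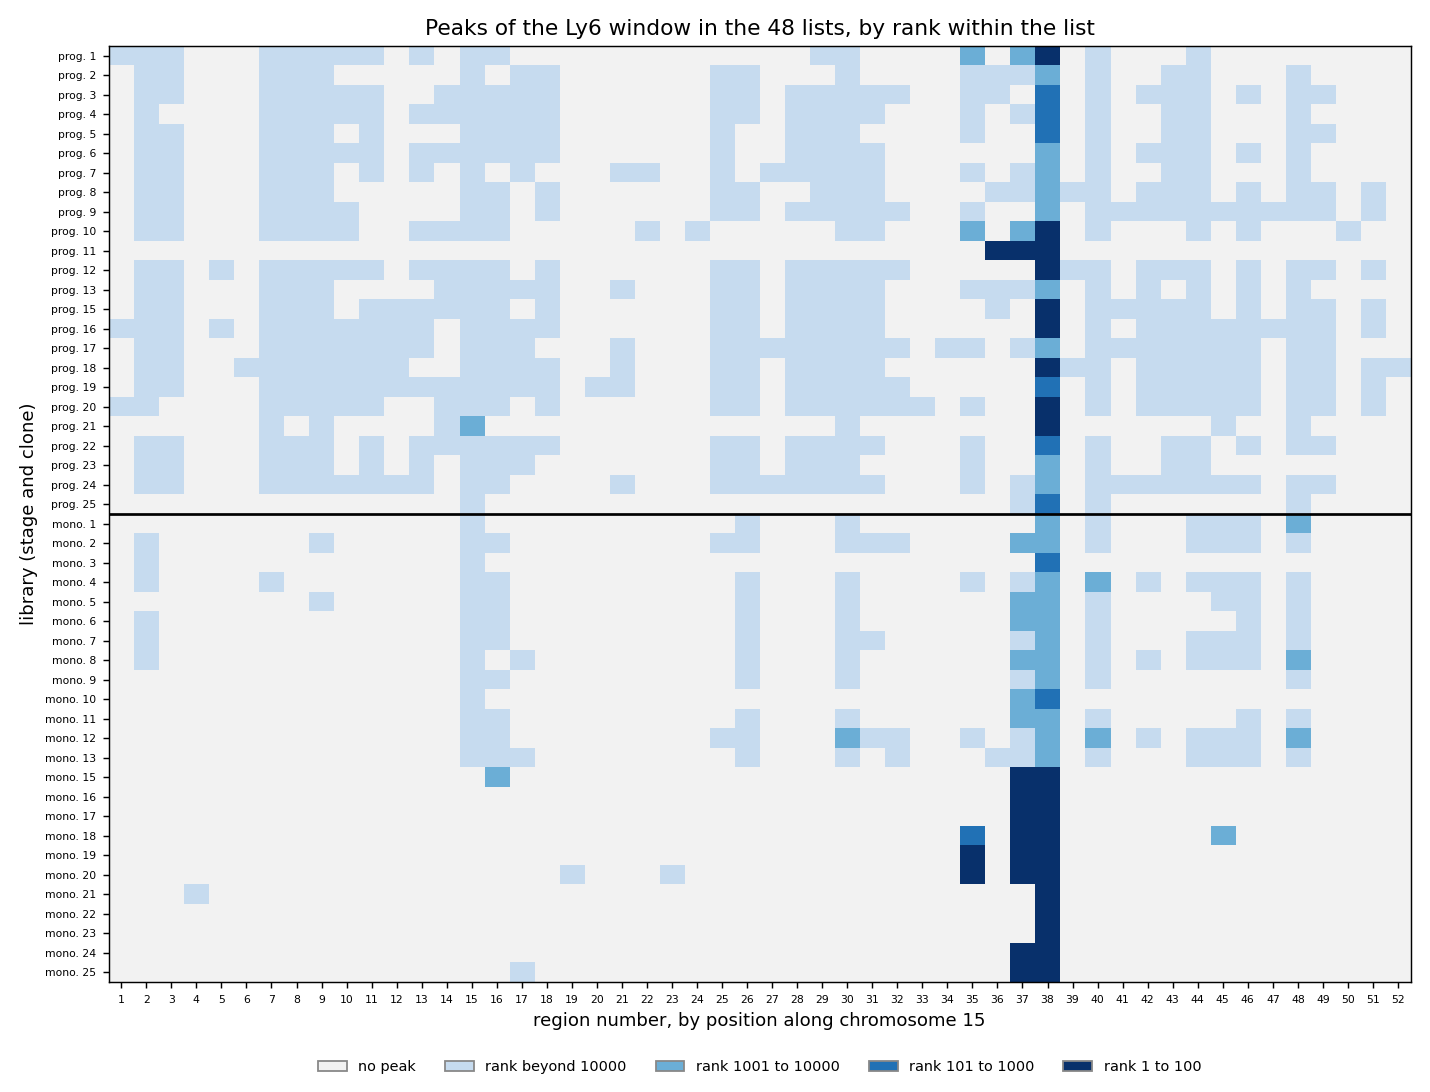
Rank of the peak in each of the 52 regions (columns, in order along chromosome 15) in each of the 48 lists (rows, progenitors above the line and monocytes below), where rank 1 is the peak of highest first score. Region 38 is filled in all 48 rows, and the monocyte lists of clones 15 to 25 hold little else besides regions 37 and 38.

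Monocyte lists were compared in sets by clone number. Those of clones 1 to 13 held peaks in 21 of the 52 regions, and 10 regions were held by at least 8 of these 13 lists. Those of clones 15 to 25 held peaks in 9 regions, and only 3 regions (35, 37 and 38) were held by more than 1 of these 11 lists. Their length differed as well, with a median of 26182 peaks in clones 1 to 13 (13606 to 32285) and 7378 in clones 15 to 25 (231 to 38786). The longest monocyte list, that of clone 20 with 38786 peaks, held 5 peaks of the window. The sets overlapped in their number of peaks in the window, 3 to 16 in clones 1 to 13 and 1 to 5 in clones 15 to 25. Among clones 1 to 13, the monocyte lists of clones 3 and 10, with 13606 and 16152 peaks, held 3 each. The part of list length in the difference between the sets was not tested. Among progenitor lists, the submitters' names carry 3 codes, and the lists with the code CRb2 (clones 21 and 25) held 8 and 5 peaks of the window, against 30 to 34 in the 4 lists with CRb3 and 3 to 34 in the 18 with CRb1. The CRb2 lists had 33185 and 22332 peaks, against 98085 to 136322 with CRb3 and 11114 to 122638 with CRb1. Per 10000 peaks, the window held 2.41 and 2.24 with CRb2, 2.49 to 3.47 with CRb3 and 2.41 to 4.31 with CRb1. The labels do not say what the codes stand for.

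Region 38, chr15:74917109-74917441, was the most general site of the cluster. It was a peak in all 48 lists, as were 58 regions of the genome in all, and it was among the 10000 highest peaks of every library that had that many. Its rank within the list was 21, 491.5 and 6181 in progenitors (lowest, median, highest; n = 24). In monocytes of clones 1 to 13 the ranks were 116, 3933 and 7377 (n = 13), and in monocytes of clones 15 to 25 they were 16, 22 and 31 (n = 11). The monocyte sets did not overlap, and the progenitor lists spread over nearly the whole range of both. All 11 later monocyte lists placed it among their 100 highest peaks, as did 9 of 24 progenitor lists and 0 of the 13 earlier monocyte lists. Among the earlier lists, clone 3 at rank 451 and clone 10 at rank 116 stood apart from the other 11, which lay between 3040 and 7377.

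A rank means little between lists that differ in length, so a level was used: the percentage of common regions, those with a peak in every library of the comparison, that had a lower first score in the same library. A list without a peak counts as level 0. With 3259 regions common to 42 libraries, the level of region 38 was 10.7%, 88.0% and 99.7% in the 24 progenitor lists (lowest, median, highest) and 2.64%, 26.3% and 99.8% in the 18 monocyte lists. The groups overlapped over nearly the whole scale. The level was higher in the monocytes in 6 of 18 clones and higher in the progenitors in 12, with an adjusted p of 0.317 (two-sided exact sign test over clones, Benjamini-Hochberg over all 22867 regions tested). The clone sets moved apart here too. In clones 1 to 13 the monocyte level was higher in 2 and lower in 11, and in the 5 later clones with both lists it was higher in 4 and lower in 1. Recomputed within clones 1 to 13, with their own 8188 common regions, the median level was 92.5% in progenitors and 54.1% in monocytes. The level was lower in the monocytes of 12 of 13 clones (adjusted p = 0.00955, exact sign test), where 53.9% of all regions tested were called higher in progenitors. In the 14 clones with the commonest naming code that had both lists, it was lower in 12 (adjusted p = 0.0200, exact sign test), where 63.3% of all regions tested were called higher in progenitors. In the 10 clones without a thin library, meaning one whose lowest peak kept among 10000 holds at most 19 steps of the first score, it was lower in 8 (adjusted p = 0.135, exact sign test).

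The rank of region 38 went with the length of the list in the monocytes of clones 1 to 13. A rank can run further in a longer list, so part of such a relation is built into the measure. Monocyte lists of clones 15 to 25 were not part of it, and with 231 to 38786 peaks they placed the region at ranks 16 to 31. Over these 13 libraries, log10 rank and log10 peak number gave a Pearson correlation of 0.899 (permutation p = 0.00302; adjusted 0.00604) and a Spearman correlation of 0.802 (permutation p = 0.00160; adjusted 0.00640). Pearson's r stayed at 0.744 when the 2 libraries farthest in peak number were left out. Over the 24 progenitor libraries r was 0.0520 (permutation p = 0.819, also after adjustment) and rho was -0.143 (permutation p = 0.506, also after adjustment), with r at -0.200 once the 2 farthest were left out. The adjusted values cover the 4 relations computed, the others being with the score step of the lowest peak kept. With that score step r was 0.905 (permutation p = 0.00170, adjusted to 0.00604) in the monocytes of clones 1 to 13, but 0.446 when the 2 farthest libraries were left out, so it rests on those. Spearman's rho was 0.687 (permutation p = 0.0123, adjusted to 0.0247). In progenitors r with the score step was 0.354 (permutation p = 0.0927, adjusted to 0.124) and rho was 0.370 (permutation p = 0.0767, adjusted to 0.102). Leaving out the 2 farthest libraries moved r to 0.420.

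**Figure D2:**
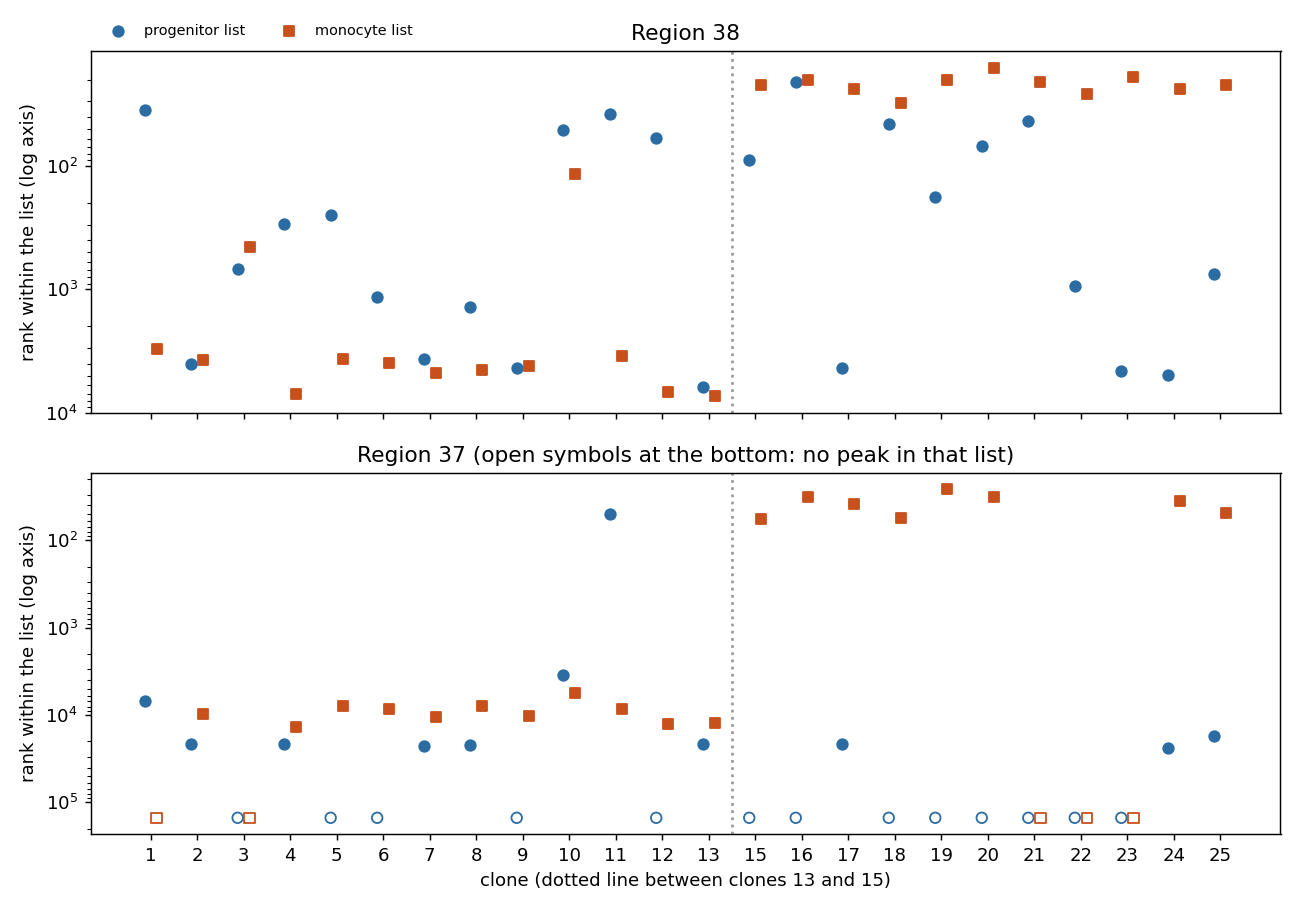
Rank within the list (log axis, highest peaks at the top) of regions 38 and 37 in the progenitor list (blue circles) and monocyte list (orange squares) of each clone, with open symbols for lists without a peak. In region 38 the monocytes of clones 15 to 25 sit between ranks 16 and 31, and 11 of the 13 earlier ones between 3040 and 7377.

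The peak in region 38 did not sit at the same place in both stages. Its centre lay 196.5, 207.5 and 229.5 bp from the low-coordinate edge of the 333-bp region in progenitors (lowest, median, highest; n = 24). In monocytes it lay at 82.5, 111 and 230.5 bp (n = 24). In 23 of the 24 monocyte lists the centre was at a lower coordinate than in every progenitor list, and the exception was the list of 231 peaks from clone 22. Over the 18 clones with at least 10000 peaks in both lists, the centre was lower in the monocytes of all 18. The shift, monocytes minus progenitors, was -96.5 ± 20.4 bp (SD, n = 18; range -147 to -63 bp), with an adjusted p of 0.000283 (two-sided exact sign test, Benjamini-Hochberg over 3259 regions). This measure was chosen after its values were seen. A shift to lower coordinates was called in 15.7% of those regions and a shift in either direction in 31.1%. The median size of the shift over all of them was 27.5 bp, and 140 of the 3259 had one at least as large as region 38. The shift had the same sign in both clone sets. In clones 1 to 13 alone the median was -103 bp (monocytes minus progenitors; adjusted p = 0.00398, exact sign test), and in the 10 clones without a thin library it was -101.5 bp (adjusted p = 0.0123, exact sign test). Peaks had nearly 1 width per list, with medians of 97 bp in progenitors and 144 bp in monocytes; the part of that difference in the shift was not tested.

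**Figure D3:**
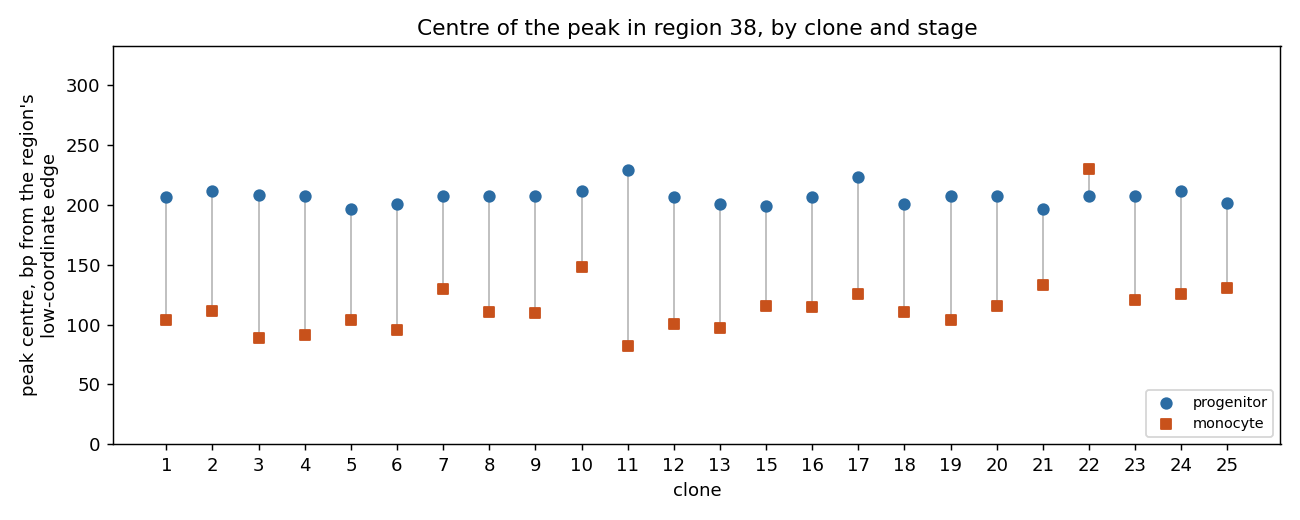
Distance in bp of the peak centre in region 38 from the region's low-coordinate edge, in progenitors (blue circles) and monocytes (orange squares) of each of the 24 clones, joined by a grey line. Progenitor centres lie between 196.5 and 229.5 bp and monocyte centres between 82.5 and 148.5 bp, apart from clone 22 at 230.5 bp.

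Region 38 belongs to a group of 4 regions (35 to 38) within 1520 bp, and these 4 were the only members that ranked among the 1000 highest peaks of any list. Region 37, chr15:74916693-74916965, ends 143 bp before region 38 begins. It was a peak in 19 of 24 monocyte lists and 11 of 24 progenitor lists. Its ranks were 26, 37 and 57 in the 8 later monocyte lists that held it (lowest, median, highest), 5551, 9735 and 13657 in the 11 earlier ones, and 50, 21274 and 23619 in the 11 progenitor lists. The 8 later monocyte lists were thus all higher in rank than the earlier ones, and the progenitor list of clone 11, at rank 50, was the only progenitor list among them. Region 35 likewise ranked 62, 68 and 613 in the 3 later monocyte lists with a peak (clones 19, 20 and 18), and 18173 and 18477 in the 2 earlier ones. In the progenitor list of clone 11, with 11114 peaks the shortest of its stage, region 36 was also among the 1000 highest peaks.

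Among the 10000 highest peaks of the list, 9 of the 52 regions appeared at least 1 time, and 2 were held by the 5 lists needed for a test. Region 37 was there in 10 of 18 monocyte lists but in 3 of 24 progenitor lists (adjusted p = 0.0297, two-sided Fisher's exact test, Benjamini-Hochberg over 13586 regions), a call made in the monocyte direction for 11.5% of all regions. Region 38 was there in all 42. By the second score the call for region 37 held, with 7 monocyte and 1 progenitor lists (adjusted p = 0.0465, Fisher's exact test). Region 38 was then among the 10000 highest in 14 of 18 monocyte lists and 6 of 24 progenitor lists (adjusted p = 0.00964, Fisher's exact test), which goes against its lower monocyte level by the first score in clones 1 to 13. By the second score 14.9% of all regions were called in the monocyte direction and 15.5% in the progenitor direction. By either score region 37 reached the 5 lists needed for a test only through its monocyte lists. Its presence calls therefore carry no weight as a direction. With clones as blocks the call for region 37 was lost, with the region in the monocytes alone in 8 of 18 clones and in the progenitors alone in 1 (adjusted p = 0.168, exact sign test; 5.06% of all regions passed in the monocyte direction). Within clones 1 to 13 it was lost as well (adjusted p = 1.00, Fisher's exact test), as it was with lists of 5000 peaks (adjusted p = 0.248) and without thin libraries (adjusted p = 0.129). In the test of levels over 18 clones, region 37 was higher in the monocytes of 13 and lower in 3, with 2 undecided (adjusted p = 0.0446, exact sign test). That was the call for 1 of 7 members tested, and 6.51% of all regions were called higher in monocytes. Too few progenitor lists had a level above 0 in region 37 to give 8 decided clones. It reached them only through its monocyte peaks, so this call carries no weight as a direction. Against common regions of chromosome 15 alone that call was lost (adjusted p = 0.803, exact sign test), and it was lost within clones 1 to 13 (adjusted p = 0.193, exact sign test).

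The weaker regions, most of which were not tested over 18 clones, were compared in the 10 clones without a thin library (1, 2, 4 to 9, 12 and 13). These clones have 14873 common regions, and 53719 regions of the genome could be tested. Of the 52 members 21 were tested, 6 were higher in monocytes, 8 were higher in progenitors and 7 passed in neither direction (exact sign test over 10 clones, Benjamini-Hochberg at 0.05). Over all regions tested, 8.33% were called higher in monocytes and 62.5% higher in progenitors. The members' shares were 28.6% and 38.1%. Within clones 1 to 13, 17 members were tested, 4 were higher in monocytes and 8 higher in progenitors, against 8.13% and 53.9% of all regions. With the commonest naming code 19 were tested, with 2 and 9 in these directions, against 3.75% and 63.3%. Of the 8 higher in progenitors within clones 1 to 13, only region 38 was held by at least 8 of the 13 monocyte lists. The others, and region 26 with 7 progenitor lists, reached 8 decided clones only through the stage where they were higher. Such calls carry no weight as a direction. In this measure a region missing from a shorter monocyte list counts as 0 there. The part of this in the larger share for progenitors over the genome was not tested.

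The 6 regions higher in monocytes lie between chr15:74851908 and chr15:74972656. Region 30, chr15:74892601-74892947, had levels of 0.255%, 0.945% and 7.81% in progenitors (lowest, median, highest; n = 10) and 12.1%, 31.0% and 41.3% in monocytes (n = 10). Region 40, chr15:74942348-74942576, had 0.276%, 2.96% and 9.50% in progenitors and 13.9%, 25.6% and 46.0% in monocytes. Both were peaks in all 20 of these lists, with every monocyte level above every progenitor level.
Region 48, chr15:74972312-74972656, had progenitor levels of 0%, 0.108% and 0.504% and monocyte levels of 6.93%, 22.1% and 45.3%. Region 26, chr15:74851908-74852164, had 0%, 0.0303% and 0.336% in progenitors and 2.39%, 11.4% and 33.4% in monocytes. Each of these 4 regions was higher in the monocytes of 10 of 10 clones (adjusted p = 0.00531, exact sign test), a pattern found in 4.93% of all regions tested, and the levels of the stages did not overlap, as in 2.17% of all regions. Regions 37 and 46 (chr15:74968259-74968505) were higher in the monocytes of 9 of 10 clones (adjusted p = 0.0303, exact sign test). In region 46 the median level was 0.0269% in progenitors and 4.14% in monocytes, and the monocyte list of clone 9 had no peak. Regions 26, 37 and 46 were held by 6, 6 and 5 of the 10 progenitor lists, so they could reach the minimum of 8 decided clones only through their monocyte peaks, and their calls carry no weight as a direction.
Regions 15, 30, 38 and 40 were held by all 20 lists, and among such regions 23.1% were called higher in monocytes and 23.2% higher in progenitors. In that set regions 30 and 40 were called with adjusted p = 0.00694 (exact sign test), and regions 15 and 38 were not (0.810 and 0.175). Over 18 clones, regions 30, 40 and 48 were not called by level. Monocytes were higher in 9, 10 and 8 clones and lower in 4, 3 and 3 (adjusted p = 0.354, 0.146 and 0.317, exact sign test). By the second score these 3 regions were not called either (adjusted p = 0.677, 0.510 and 0.379, exact sign test). No monocyte list of clones 15 to 25 held a peak in regions 26, 30, 40, 46 or 48, so their level in those clones is known only as below the lowest peak of each list. Progenitor lists of all 24 clones held these 5 regions 15 to 22 times, at a median rank between 27346 in region 40 and 57805 in region 26.

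**Figure D4:**
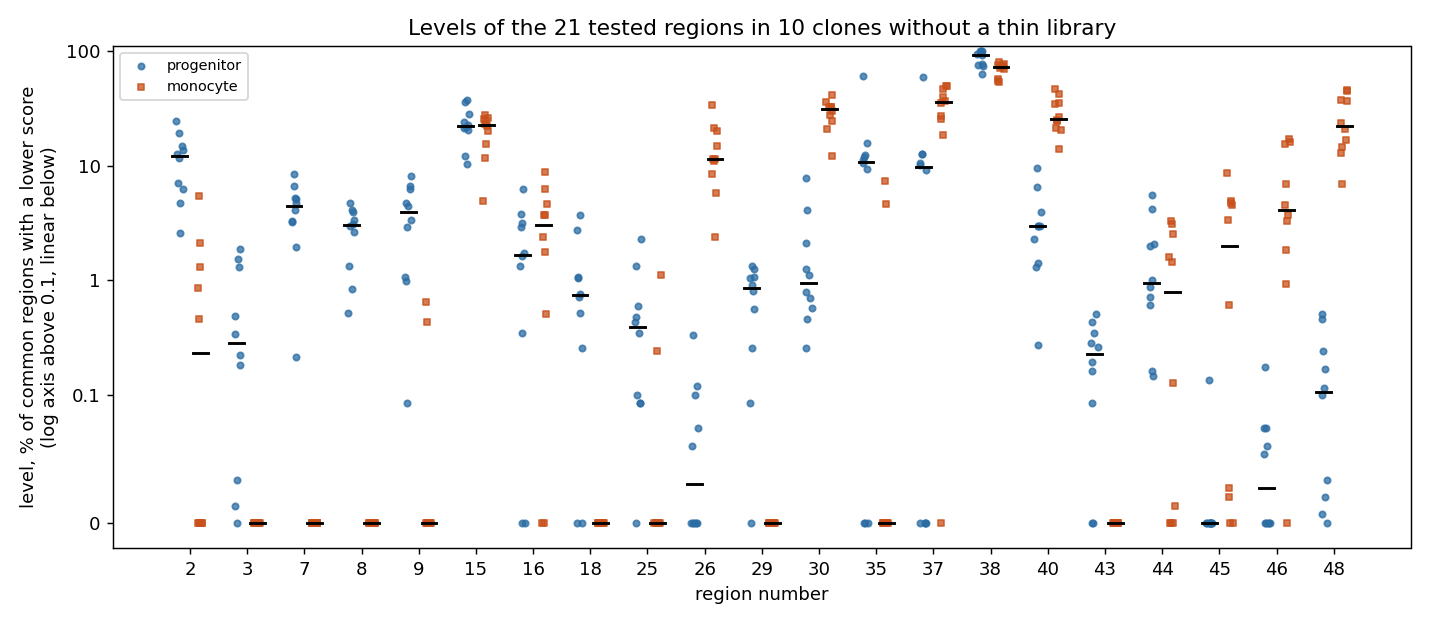
Level of each of the 21 tested regions in the progenitors (blue circles) and monocytes (orange squares) of 10 clones, as the percentage of common regions with a lower first score in the same library, on an axis that is logarithmic above 0.1%. Black bars are medians, and points at 0 include lists without a peak. In regions 26, 30, 40 and 48 all monocyte points lie above all progenitor points.

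The 8 regions higher in progenitors lie between chr15:74785758 and chr15:74949407. Region 2, chr15:74785758-74786373, the widest of the 52 at 616 bp, had levels of 2.61%, 12.1% and 24.3% in progenitors (lowest, median, highest; n = 10) and 0%, 0.232% and 5.40% in monocytes (n = 10), and was higher in the progenitors of 10 of 10 clones (adjusted p = 0.00531, exact sign test). The stages overlapped in region 2, and 5 of its 10 monocyte lists had no peak there. Regions 7 (chr15:74793115-74793301) and 8 (chr15:74794473-74794642) had median progenitor levels of 4.40% and 3.04%, against 0% in each monocyte list, 1 of which held a peak in region 7. The stages did not overlap in these 2 regions, as in 21.4% of all regions tested.
Region 9 (chr15:74798735-74798933) had a median of 3.92% in progenitors and was higher there in 9 of 10 clones (adjusted p = 0.0303, exact sign test). Regions 3 (chr15:74787416-74787626), 18 (chr15:74823291-74823415), 29 (chr15:74891079-74891205) and 43 (chr15:74949289-74949407) had median progenitor levels of 0.282%, 0.740%, 0.854% and 0.229%. With region 8, these 4 were held by none of the 10 monocyte lists. Each could thus pass the minimum of 8 decided clones only as higher in progenitors. Regions 2, 7 and 9 were held by 5, 1 and 2 of these lists, so they too reached that minimum only through progenitor peaks. The calls of all 8 regions carry no weight as a direction. Higher levels in the progenitors of every clone were found in 3 of 21 members, against 31.9% of all regions tested.

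The remaining 7 regions passed in neither direction in these 10 clones. Region 15, chr15:74819023-74819268, was a peak in 23 progenitor lists and in all 13 monocyte lists of clones 1 to 13. Its levels were 10.3%, 22.1% and 37.0% in progenitors and 4.93%, 22.5% and 27.5% in monocytes, and the monocytes were higher in 4 of 10 clones (adjusted p = 0.782, exact sign test). Some other settings called it higher in progenitors. With the commonest naming code it was lower in the monocytes of 12 of 14 clones (adjusted p = 0.0200, exact sign test). Against common regions of chromosome 15 alone it was lower in all 9 decided clones (adjusted p = 0.00888, exact sign test), where 56.3% of all regions were called in that direction. Its median level on these 133 regions was 0.376% in progenitors and 0% in monocytes. So near the floor, this call carries no weight as a direction. By the second score it was lower in 14 of 18 clones (adjusted p = 0.0421, exact sign test), where 73.1% of all regions were called higher in progenitors. By that score it was also among the 10000 highest peaks in 2 monocyte and 14 progenitor lists (adjusted p = 0.0179, Fisher's exact test), against 15.5% of all regions. Region 15 reached the 5 lists needed there only through progenitors, so this presence call carries no weight as a direction. Its neighbour region 16 (chr15:74819488-74819782) had medians of 1.67% and 3.06% in progenitors and monocytes, region 44 (chr15:74950552-74950773) 0.945% and 0.787%, region 25 (chr15:74850081-74850283) 0.393% and 0%, and region 35 (chr15:74915922-74916081) 10.8% and 0%. Region 35 was called higher in progenitors within clones 1 to 13, in 9 of 10 decided clones (adjusted p = 0.0362, exact sign test), as were 53.9% of all regions. Only 2 monocyte lists of these clones held region 35, so it reached 8 decided clones only through progenitor peaks. Its call carries no weight as a direction. Region 45 (chr15:74965475-74965716) was higher in the monocytes of 8 clones and lower in 1 (adjusted p = 0.0539, exact sign test).

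Lists of 20000 peaks, which 12 monocyte and 23 progenitor libraries reach, gave a view that does not rest on common regions. Of the 12 members that could be tested, 8 (66.7%) were more often among the 20000 highest peaks in monocytes and 0 in progenitors (two-sided Fisher's exact test, Benjamini-Hochberg at 0.05), where 14.4% and 12.9% of all 27315 regions tested were called in those directions. None of the 8 was in 5 progenitor lists, so each reached the 5 lists needed for a test only through monocytes, and their count gives no direction of its own. Region 30 was there in 11 of 12 monocyte lists and in 0 of 23 progenitor lists (adjusted p = 2.1e-06). Regions 40 and 48 were each there in 11 monocyte libraries and 1 progenitor library, and region 26 in 10 and 0. Region 46 was there in 8 and 0, regions 16 and 45 each in 5 and 0, and region 37 in 11 and 3. Regions 15 (11 and 22 libraries), 38 (12 and 23), 35 (3 and 8) and 2 (1 and 8) were not called.
The same 8 were called within clones 1 to 13, with 11 monocyte and 12 progenitor libraries, against 15.9% of all regions. With clones as blocks, no region of the genome passed in 11 clones (exact sign test). At an unadjusted p below 0.05 there were 5336 of 24537 regions, and 6 of the 11 members tested. Regions 30, 40 and 48 were then in the monocytes alone in 10 clones and in the progenitors alone in 0 (adjusted p = 0.0570). The peak at rank 20000 held 11 to 19 steps of the first score in monocyte libraries, with 1 step read as 1 tag, and 5 to 202 steps in progenitor libraries.

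The study paired the stages by clone, and the levels of a clone's progenitors and monocytes were compared in the regions that all lists of a comparison held. Over 18 clones region 38 was the only such member. Its monocyte levels form separate clusters, so no correlation over all clones is given. In clones 1 to 13 Pearson's r was 0.372 (permutation p = 0.203, adjusted to 0.818) and Spearman's rho 0.549 (permutation p = 0.0557, adjusted to 0.688). Leaving out the 2 clones farthest from the median progenitor level moved r to 0.155. Adjustment was over 8188 regions, of which 0 were called, and 570 had an unadjusted permutation p of r below 0.05. In the 10 clones without a thin library regions 15, 30, 38 and 40 could be compared. Their r was 0.573, -0.0811, 0.158 and -0.336 (permutation p = 0.0840, 0.813, 0.648 and 0.350), and rho was 0.406, 0.0788, 0.370 and -0.176 (permutation p = 0.248, 0.839, 0.294 and 0.632). The adjusted p of r was 0.503, 0.952, 0.898 and 0.751 and that of rho 0.727, 0.970, 0.759 and 0.908 over 14873 regions. Without the 2 farthest clones r was 0.370, 0.109, -0.239 and 0.518. A relation between the stages of a clone was thus not detectable in these regions at this number of clones.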

How the data were processed

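ATAC-seq peak lists of 48 libraries were used as deposited. Per the submitters' processing notes, BWA and mm9 were used. These notes and the labels name no peak caller, read filter or shift of reads. The authors deposited 2 scores per peak, without a header. The first score lies on an evenly spaced ladder, with 92.4% to 100% of values below 40 steps within 0.1 step of a whole multiple, so 1 step was read as 1 tag. Scores served only to rank peaks within a list, and ties took the order of the list. Total reads per library are not given, so steps at the lowest peak kept (9.01 to 604) stand for depth, and they cover counting error only. Positions are 1-based.

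Regions, presence, levels, peak centres and pairing were computed with Python 3.11.15, numpy 2.4.6, scipy 1.17.1 and pandas 2.3.3, and promoters were aligned with Biopython 1.88. Tests spanned all regions of the genome with Benjamini-Hochberg adjustment at 0.05, and only members are printed. Presence needed 5 lists among those of at least 10000 peaks, which left out the monocytes of clones 15, 17, 19, 22, 23 and 24. The sign test needed 8 decided clones. Correlations used 100000 permutations. Samples are paired by clone number, since the series design states clonal pairing. The tests were checked on simulated data. Members, tests and lists were chosen with earlier results of these data known. Regions tested over 18 clones, in the 10 clones without a thin library or in lists of 20000 peaks are named, and members tested in other settings alone are only counted. Where a region has several peaks in a list, the one of highest score counts. Alternatives were other list lengths, the second score, 500-bp merging, a chromosome 15 yardstick, fits with or without clone blocks, clones 1 to 13, the commonest naming code, and leaving out libraries with at most 19 steps.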

Additional observations from a re-analysis of the deposited data

Results flagged for a closer look

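The 6 monocyte lists with fewer than 10000 peaks (clones 15, 17, 19, 22, 23 and 24) entered no test of presence or level, and all 6 held region 38, chr15:74917109-74917441, a signal in data outside the comparisons. Its ranks there were 19, 23 and 26 (lowest, median, highest), and in the other 5 monocyte lists of clones 15 to 25 they lay between 16 and 31. Region 37 was a peak in 4 of the 6.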

How the results depend on the processing

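The number of member regions called for presence was 1, and it was 0 with lists of 5000 peaks, 500-bp merging, the replicate block, clones 1 to 13, the commonest naming code or without thin libraries. It was 8 with lists of 20000 peaks, 8 with these in clones 1 to 13, 0 with these and the replicate block, and 3 by the second score (2 higher in monocytes, 1 in progenitors). The number called by level was 1, higher in monocytes, and 1 in the other direction against chromosome 15 alone. It became 15 by the second score, all higher in progenitors, as were 73.1% of all regions. It was 6 with no replicate block (4 higher in monocytes, 2 in progenitors), against 10.3% and 53.7% of all regions. It was 0 with 500-bp merging, 12 in clones 1 to 13 (4 and 8) and 11 with the commonest naming code (2 and 9). Without clones with a thin library it was 14 (6 and 8), and 2 among regions held by every list of those clones (2 and 0). The tests within clones 1 to 13 and with 10 clones had 8188 and 14873 common regions, against 3259 over 18 clones. They covered 46419 and 53719 regions, against 22867. Causes of the differences between settings were not tested. Directions of level reversed 2 times, without a call by level. By the second score region 38 was higher in monocytes by a net 6 clones, and with 500-bp merging, which joins regions 35 to 38, the joined region was lower by a net of -6 clones where region 37 had been higher by 10. The difference in peak number (monocytes minus progenitors, 0.764) was 5.63 with lists of 20000. The direction of the shifted centre and its call held in all 3 alternatives run, which were added after seeing the data, as were the last settings of 20000 peaks and that of regions held by every list. In any list, regions below its lowest peak are unseen.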
